A study of Mus musculus with 43 samples.

Results

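Nrtn, Ccdc3, Rab5if, Trir, Ppp1r35, Glrx5, Mapkap1, Gga2, Mlycd and Rab24 are 10 of the 56941 gene identifiers in the count table, and they were chosen for their low counts in the marrow stroma of transplanted mice. Since the stroma comparison chose them, their stroma values are given as a description without a test, and tests are given for what the choice did not use. In the fit to the stroma counts, 238 genes with a mean of at least 2 log2 CPM (counts per 1000000 counted) passed as lower. Nrtn, Ccdc3, Rab5if, Trir, Ppp1r35 and Glrx5 held ranks 1, 3, 6, 7, 8 and 10 of these by log2 fold change, and Mapkap1, Ppp1r35, Gga2, Mlycd, Trir and Rab24 held ranks 1 to 6 by p-value. "Lowered most" therefore describes the first set by size. Mapkap1, at rank 108 by size, and Gga2, at rank 42, stood out by the regularity of a smaller difference. By size, Glrx5 was the last inside the first 10 at a log2 fold change of -2.22, and Zfp622 lay near it on the outside at -2.14. Igfbp7, Fzd9 and Grasp were among the first 10 without belonging to the set. By p-value, Rab24 at -2.13 was the last inside and Guf1 at -1.23 the first outside.

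The study gave 5000000 whole marrow cells positive for JAK2V617F, an activating mutation of the cytokine-receptor kinase JAK2 that drives myeloproliferative neoplasms, to unconditioned wild-type mice matched for age and sex. Donor cells carried the CD45.2 form of the leukocyte antigen CD45 and hosts the CD45.1 form, and controls were wild-type CD45.1 mice that received no transplant. About 7 months later, RNA was sequenced from CD45.1+ host cells (n = 7), CD45.2+ donor cells of the same mice (n = 7), CD45.1+ cells of controls (n = 8), and stroma-enriched cells of the transplanted mice (n = 7, 4 males and 3 females) and of controls (n = 8, 4 males and 4 females). CD45.1+ CD11b+ cells came from other males 52 weeks after transplantation (n = 3) and from untransplanted males (n = 3). The stroma was enriched by removing cells positive for CD45.1 or CD45.2 and for the lineage markers B220, CD11b, Ly-6G/Ly-6C, Ter119, NK1.1, CD4 or CD8. It was thus defined by what it lacked, and the mutation was in the donor cells and not in the host. Hosts kept their own marrow, and their final blood chimerism was listed as 0.63 to 5.99, with no unit in the labels. The construct behind the mutation and the ages are not given in the sources used here. One donor sample, from animal N204, is labelled donor in its title and recipient-derived in a characteristic, and was used as donor.

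Control stroma libraries held 50.7 to 143.2 M counted reads (M, 1000000), transplanted stroma 41.2 to 64.0 M, the CD45-sorted groups 15.7 to 19.7 M and the CD11b+ groups 32.5 to 44.9 M. Markers of LepR+ stroma were present in every stroma library, with a summed level of 1603 to 7907 CPM in controls and 925 to 4566 CPM in transplanted mice, as were those of the osteoblast lineage at 7393 to 20041 and 3344 to 21943 CPM. The stroma of animal N032, a transplanted male, stood apart. Ribosomal protein genes took 6.23% of its counts, against a median of 2.34% in the 7 transplanted libraries and 2.50 to 3.78% in controls. Results that rest on it are given with and without it.

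The 10 genes act in separate places in the cell. Nrtn (neurturin) and Ccdc3 encode secreted proteins. Neurturin is a ligand of the GDNF family and signals through a GFRA co-receptor and the kinase RET. Rab24, an atypical small GTPase tied to autophagy, Gga2, an adaptor that sorts cargo at the trans-Golgi, and Rab5if, a small membrane protein of the endoplasmic reticulum, belong to membrane traffic and membrane protein insertion. Glrx5 passes on iron-sulphur clusters in mitochondria, which haem synthesis in red-cell precursors depends on, and Mlycd breaks down malonyl-CoA, the inhibitor of mitochondrial fatty-acid import. Mapkap1 (SIN1) is a core subunit of the kinase complex mTORC2, Ppp1r35 takes part in centriole elongation, and Trir is a ribonuclease found with the telomerase RNA.

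Because the genes were low together, the 250 bases before each gene's start were read from the RefSeq promoter table (GRCm38.p6, another build than the one the counts were made on), which held all 10. The letters CCGGAAG, the core that ETS factors such as GABPA bind, were searched for on both strands and occurred in 4 of the 10 promoters and in 7.05% of 27025 promoters. These 4 promoters are shown 5′ to 3′ on the gene's strand, with the letters CCGGAAG or their reverse complement in capitals.
Rab5if, chr2:156862872-156863121, plus strand: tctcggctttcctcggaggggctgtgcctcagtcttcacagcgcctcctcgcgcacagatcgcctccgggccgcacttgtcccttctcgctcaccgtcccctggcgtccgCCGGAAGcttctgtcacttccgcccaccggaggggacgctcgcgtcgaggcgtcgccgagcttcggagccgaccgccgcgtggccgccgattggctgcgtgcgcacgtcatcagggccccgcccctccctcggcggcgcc
Ppp1r35, chr5:137778654-137778903, plus strand: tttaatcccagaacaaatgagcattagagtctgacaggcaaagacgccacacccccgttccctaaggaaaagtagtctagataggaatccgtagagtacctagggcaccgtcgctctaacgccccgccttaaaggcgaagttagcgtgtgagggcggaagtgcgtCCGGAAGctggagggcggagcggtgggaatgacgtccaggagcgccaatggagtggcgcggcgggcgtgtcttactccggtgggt
Mlycd, chr8:119394644-119394893, plus strand: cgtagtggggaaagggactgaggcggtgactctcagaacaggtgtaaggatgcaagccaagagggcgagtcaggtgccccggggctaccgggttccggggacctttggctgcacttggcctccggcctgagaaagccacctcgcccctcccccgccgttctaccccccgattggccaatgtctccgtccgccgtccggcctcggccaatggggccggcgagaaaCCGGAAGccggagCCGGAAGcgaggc
Rab24, chr13:55321981-55322230, minus strand: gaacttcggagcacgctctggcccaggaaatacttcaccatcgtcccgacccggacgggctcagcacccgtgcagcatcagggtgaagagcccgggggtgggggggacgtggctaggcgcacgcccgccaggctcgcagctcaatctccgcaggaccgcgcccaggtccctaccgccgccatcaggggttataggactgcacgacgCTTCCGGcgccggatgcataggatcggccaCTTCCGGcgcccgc
In Mlycd and Rab24 the letters occur 2 times each. The GC box GGGCGG occurred in 7 of the 10 promoters (all but Glrx5, Mlycd and Rab24) and in 32.9% of all promoters, and CCAAT in 6 and in 34.5%. TATAAA and CACGTG occurred in 0 of the 10, and in 13.0% and 6.05% of all promoters. TTCNNNGAA, the letters STAT factors bind, occurred in Gga2 alone and in 7.18% of all. The searched letters do not overlap one another except where sites adjoin, and a match is only a match of letters. Median GC content was 62.0% in the 10 promoters and 52.0% in all, and the median number of CpG pairs was 21 and 6. The shares above are over all promoters, not those of genes expressed in stroma. No share was counted among promoters of like GC content.

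In stroma, all 10 genes had lower means in transplanted mice, by 2.29-fold for Mapkap1 up to 9.24-fold for Nrtn in the fit. For 8 of the 10 every transplanted library lay below every control library, which held for 0.546% of the 26191 genes tested. Nrtn and Glrx5 were the exceptions. All 10 were among the genes called lower (1.03% of those tested, while 122 genes, 0.466%, were called higher), which the choice of genes fixes. Without N032 all 10 were called too, with log2 fold changes from -1.17 for Mapkap1 to -3.04 for Nrtn. In bulk samples, fewer cells of a type and less RNA per cell cannot be told apart.

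The secreted factor Nrtn was at 6.16, 16.7 and 45.05 CPM in control stroma (lowest, median, highest) and at 0.290, 1.45 and 8.02 CPM in transplanted stroma. The groups overlapped, since the transplanted females N204 and N279, at 6.85 and 8.02 CPM, lay above the control male N208 at 6.16 CPM. The log2 fold change was -3.21 ± 0.51 (SE). Ccdc3 was the most abundant of the 10 in control stroma by CPM, at 59.8, 128.4 and 197 CPM, against 5.53, 25.4 and 45.21 CPM in transplanted stroma. These groups did not overlap, and the log2 fold change was -2.53 ± 0.37 (SE).

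Of the membrane genes, Rab5if was at 20.9, 40.5 and 73.3 CPM in controls and at 2.66, 7.11 and 15.3 CPM in transplanted mice (log2 fold change -2.44 ± 0.38, SE). Rab24 was at 11.3, 18.2 and 23.3 CPM in controls and at 1.81, 4.03 and 7.19 CPM in transplanted mice (-2.13 ± 0.26). The Golgi adaptor Gga2 was at 31.8, 53.0 and 72.8 CPM and at 11.8, 16.5 and 22.4 CPM (-1.62 ± 0.18). In all 3 the lowest control lay above the highest transplanted library, by 1.37-fold for Rab5if, 1.57-fold for Rab24 and 1.42-fold for Gga2. The lowest control was the same animal, N208, for each of them.

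The mitochondrial gene Glrx5 was at 23.0, 45.4 and 84.1 CPM in controls and at 5.604, 8.83 and 27.5 CPM in transplanted mice, with a log2 fold change of -2.22 ± 0.38 (SE). Its overlap came from N032 alone, at 27.5 CPM. The next highest transplanted library had 13.7 CPM, and without N032 the log2 fold change was -2.54. Controls fell into 4 libraries at 60.8 to 84.1 CPM (N051, N283, N002 and N093) and 4 at 23.0 to 30.1 CPM (N208, N277, N288 and N280). Mlycd was at 7.02, 12.2 and 16.6 CPM in controls and at 2.06, 2.37 and 4.04 CPM in transplanted mice (-2.06 ± 0.23), without overlap.

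Mapkap1 had the smallest difference and the tightest controls, at 45.7, 58.9 and 68.0 CPM, with a coefficient of variation of 12.6%, against 26.1% for Rab24 up to 65.1% for Nrtn. Its transplanted libraries held 18.3, 24.9 and 32.9 CPM (log2 fold change -1.20 ± 0.13, SE). Ppp1r35 was at 15.6, 25.9 and 36.2 CPM in controls and at 2.28, 5.94 and 7.02 CPM in transplanted mice (-2.35 ± 0.26). It had the widest gap of the 10, the lowest control being 2.23-fold above the highest transplanted library. Trir was at 14.7, 29.3 and 50.6 CPM and at 3.35, 5.84 and 8.75 CPM (-2.40 ± 0.29), also without overlap.

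**Figure D1:**
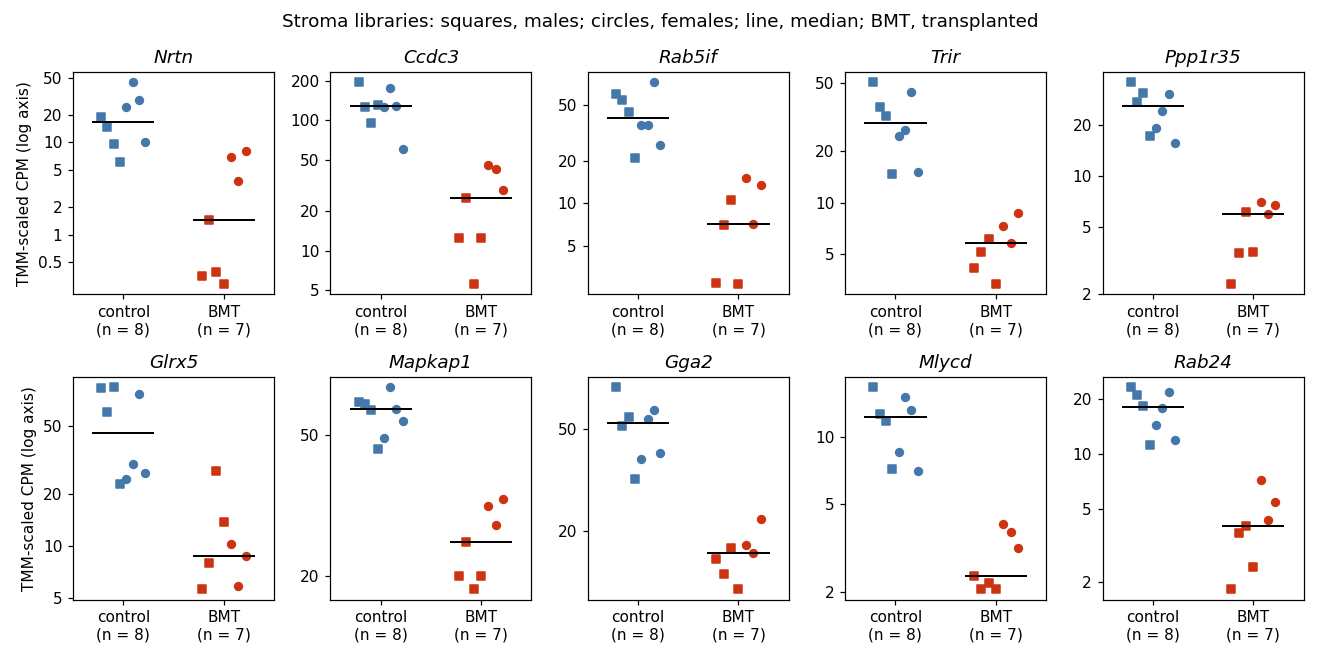
TMM-scaled CPM (log axis) of the 10 genes in each stroma library, controls (blue, n = 8) and transplanted mice (red, n = 7), with males as squares, females as circles and the median as a line. The groups overlap for Nrtn and for Glrx5, where 1 transplanted male (N032, 27.5 CPM) lies apart. In the transplanted group all 4 males lie below all 3 females for Nrtn, Ccdc3, Mapkap1, Mlycd and Rab24. The share of all genes that separate in this way was not counted.

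Within the transplanted group the sexes separated for several of the 10 genes. The share of all genes that separated in this way was not counted. The genes also correlated with each other, so they are not separate observations. Nrtn was at 0.290 to 1.45 CPM in the 4 males and 3.86 to 8.02 CPM in the 3 females. Ccdc3 was at 5.53 to 25.4 CPM in males and 29.1 to 45.21 CPM in females, Mapkap1 at 18.3 to 24.9 and 27.9 to 32.9 CPM, Mlycd at 2.06 to 2.37 and 3.17 to 4.04 CPM, and Rab24 at 1.81 to 4.03 and 4.34 to 7.19 CPM. These genes overlapped between the sexes in controls, for example Mapkap1 at 45.7 to 61.7 CPM in males and 49.0 to 68.0 CPM in females. For Nrtn the control females had the higher median, 26.3 CPM against 12.2 CPM in males. The difference between the sexes in the effect of transplantation, which the choice of genes did not use, was tested as an interaction in edgeR. It was -2.18 ± 0.76 (SE) on the log2 scale for Nrtn, a larger fall in males, and -1.63 ± 0.57 for Ccdc3. Neither passed adjustment over all genes (adjusted p = 0.98 for both). Over all genes 0 of 26191 passed (0%), and 745 had an unadjusted p below 0.05 (2.84%), among them 6 of the 10: Nrtn, Ccdc3, Ppp1r35, Rab24, Mapkap1 and Mlycd. That number rested on single libraries, at 2 without N002, 3 without N277, N288 or N204, and 8 without N208 or N283. DESeq2 called 1 gene, none of the 10. Fitted in females alone (3 against 4), log2 fold changes ran from -0.91 for Mapkap1 to -2.27 for Glrx5 and 0 genes of all were called, with 1365 at an unadjusted p below 0.05. In males alone (4 against 4) they ran from -1.50 for Mapkap1 to -4.34 for Nrtn.

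Final blood chimerism, the share of donor cells in blood, was set against the stroma levels of the 7 transplanted mice with sex in the model. The slope per doubling of chimerism was 0.44 ± 0.27 (SE, log2) for Nrtn and 0.32 ± 0.21 for Ccdc3, and for the other 8 it lay between -0.04 for Glrx5 and 0.21 for Rab5if. None of the 10 passed (edgeR, adjusted p = 1 for each). Of all 31105 genes 0 passed (0%) and 1227 had an unadjusted p below 0.05 (3.94%), none of them among the 10. DESeq2 called 16 genes and edgeR without the low-count filter 4.

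Several measures of the stroma libraries moved with the transplant. The summed level of 8 erythroid markers was 463 to 1608 CPM in controls and 2556 to 18688 CPM in transplanted stroma, without overlap. All 8 were detected. Both Hbb and both Hba genes and the haem synthesis gene Alas2 were separate between the groups, all higher in transplanted stroma. Klf1, a transcription factor of red-cell precursors, overlapped and had the lower median in transplanted stroma, 75.4 against 113.5 CPM, while Slc4a1 overlapped with the higher one, 175 against 14.8 CPM. At its highest the list took 1.87% of a library. Of 8 macrophage markers, 2 complement genes were separate and higher in transplanted stroma, C1qb at 5.02 to 27.4 CPM against 0.333 to 2.93 CPM and C1qc at 2.82 to 9.11 CPM against 0.320 to 2.16 CPM. C1qa had medians of 4.28 and 0.366 CPM and overlapped. Adgre1, Csf1r and Cd5l overlapped too, with the higher median in transplanted stroma. Mrc1 overlapped and went the other way, with medians of 3.86 CPM in transplanted stroma and 10.4 CPM in controls. The summed level of the macrophage list overlapped, at 73.1 to 344.3 CPM against 156 to 500.04 CPM, with Vcam1 as its largest part (medians of 164 and 190.1 CPM). Sums for neutrophil, B and plasma cell, megakaryocyte, T and NK cell, endothelial, adipocyte and pan-haematopoietic markers overlapped too, as did those of LepR+ stroma and osteoblast lineage, and in these lists 0 genes were separate. The share of all genes that were separate and higher in transplanted stroma was not counted. The part of these markers in the lower levels of the 10 genes was not tested.

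A second measure was the GC content at the start of the transcript. Over the first 200 bases of the longest coding transcript (GENCODE vM21), 9 of the 10 genes lay above the median of 63.0% for 11733 coding genes with a mean of at least 2 log2 CPM, at 65.5% for Ppp1r35 up to 79.5% for Ccdc3. Mapkap1, at 49.0%, was the exception. When those genes were divided into 5 equal bins by this GC content, the highest bin (72.0% to 88.5% GC) held 141 of its 2328 genes called lower in transplanted stroma (6.06%), and 8 of the 10 genes. Those 8 are among the 141, since all 10 were called lower. In the other 4 bins 0.535% to 2.16% were called lower, which were 18, 13, 16 and 47 genes from the lowest bin up. The 10 thus shared a high starting GC content with many other genes called lower. The highest bin stood at 7.73% without N032, 9.71% with DESeq2, 9.06% on log2(TPM + 1) and 3.39% with the day of collection as a block, against at most 2.99%, 3.72%, 3.26% and 1.10% in the others; these fits were added after the data were seen. Genes called higher made up 0.515% of the highest bin and 1.17% of the lowest. The median log2 fold change was -0.06 in the highest bin and 0.00 in the lowest. Leaving out the 10, the median deviation of the highest bin minus that of the lowest was -0.01 to 0.13 (log2, median 0.035) in control libraries and -0.09 to 0.09 (median -0.03) in transplanted ones. These ranges overlapped. In all 5 pairs of libraries of the same day and sex the transplanted one was lower, by differences of -0.04 to -0.18. These pairs leave out the lowest controls, N093 and N051 at -0.012 each and N288 at 0.002, which had no partner. The transplanted N005 (-0.086) and N032 (-0.027) had none either. The pairs thus describe only part of the libraries. The transcripts were also short, 9 of 10 below the median of 3196 bases, from 902 for Trir. Across the 11733 genes length had a Spearman correlation of 0.035 with the log2 fold change, and starting GC content one of -0.13. Genes are not independent replicates. The part of transcript GC content in the result was not tested.

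**Figure D2:**
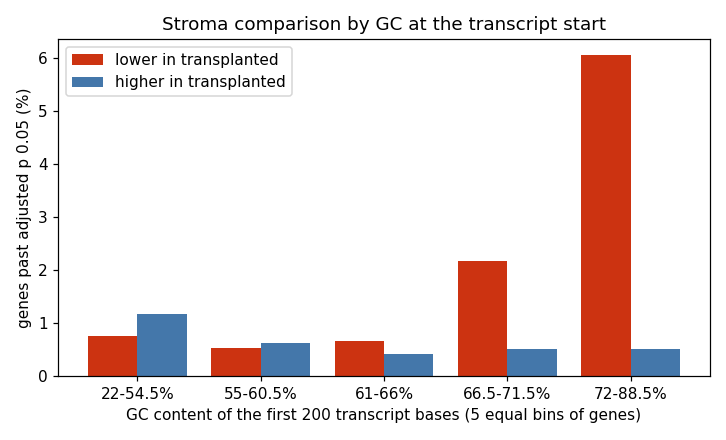
Share of genes past an adjusted p of 0.05 in the stroma comparison (percent, y axis) in 5 equal bins of 11733 coding genes by the GC content of the first 200 transcript bases (x axis), lower in red and higher in blue. Genes called lower make up 6.06% of the highest bin and at most 2.16% of any other.

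Among the stroma libraries most pairs of the 10 genes correlated. With group means removed, the 45 pairs of genes had a median Pearson's r of 0.67 over 15 libraries, from -0.30 for Ccdc3 and Glrx5 to 0.95 for Rab5if and Rab24. In 35 pairs r was above 0.5. The 3 pairs below 0 all held Glrx5, with Nrtn (-0.17), Ccdc3 (-0.30) or Mapkap1 (-0.03). They rested on N032. Without it 0 pairs lay below 0, these 3 stood at 0.02, 0.08 and 0.29, and the median of the 45 pairs was 0.74 over 14 libraries, a calculation added after the data were seen. In the 8 controls alone the 3 were 0.11, 0.23 and 0.56, and in the 7 transplanted libraries -0.36, -0.66 and -0.45. In the transplanted libraries without N032 they were -0.064, -0.132 and 0.009. The stroma libraries share an enrichment and a library kit and differ in depth, and the values are a description. The same figures were not computed for pairs of other genes, so the correlation is not shown to be particular to the 10. Rab24, Rab5if, Trir and Ppp1r35 correlated with each other at 0.84 to 0.95, and Nrtn, Ccdc3 and Mapkap1 at 0.77 to 0.90. Sex was not removed, and the sexes separated for Nrtn, Ccdc3, Mapkap1 and Rab24 in the transplanted group. By this measure, over 26190 genes, the 2 most like a member were Ripk1 (0.97) and Txndc11 for Nrtn, Olfm1 (0.93) and 2310022B05Rik for Ccdc3, Sap30 (0.96) and Faf1 for Rab5if, and Endog (0.95) and Coq2 for Trir. The gene most like Ppp1r35 was Uri1 (0.96). The 2 most alike were Usp1 (0.95) and Eif3b for Glrx5, Rcbtb1 (0.97) and Fzd9 for Mapkap1, and Mlec (0.92) and Med14 for Mlycd. For Gga2 they were Trir (0.90) and Coq2, and for Rab24 Faf1 (0.97) and Rab5if.

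**Figure D3:**
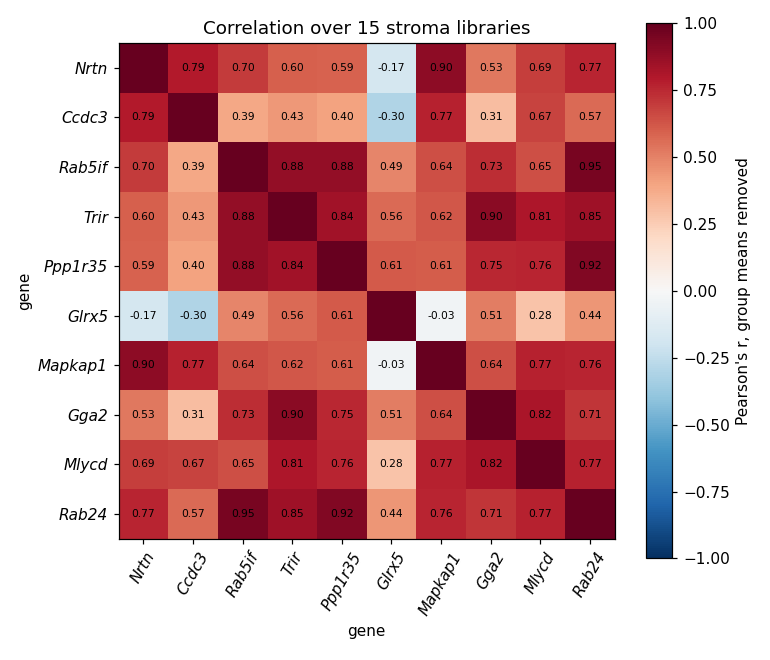
Pearson's r between each pair of the 10 genes over 15 stroma libraries after removal of the group means (colour and number; both axes list the genes). Rab5if and Rab24 correlate at 0.95, and the 3 values below 0, all of Glrx5, lie above 0 without the library of N032.

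The levels per transcript length, as deposited TPM, placed the genes in 2 classes across the 7 groups. The stroma and the other groups were made into libraries with different kits, so no test was made across them. Nrtn and Ccdc3 were stroma genes. Nrtn was at 8.72 to 57.1 TPM in control stroma and 0.325 to 9.34 TPM in transplanted stroma, and at most 1.03 TPM in any CD45-sorted or CD11b+ library. Ccdc3 was at 27.9 to 92.0 TPM in control stroma and 2.69 to 20.7 TPM in transplanted stroma, and at most 0.03 TPM elsewhere. In all 6 CD11b+ libraries it had 0 counts, which allows up to 0.0669 to 0.0924 CPM per library (3 counts, counting error only). Both genes were removed by the low-count filter outside the stroma, so 8 of the 10 were tested there.

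The other 8 were expressed in every group. Rab5if was at 77.5 to 251 TPM in control stroma, at 206 to 265 TPM over the 5 haematopoietic groups and at 8.42 to 50.1 TPM in transplanted stroma. Trir was at 21.3 to 72.5 TPM in control stroma and 4.35 to 10.995 TPM in transplanted stroma, both below its 135 to 227 TPM in haematopoietic cells. For Rab5if, Trir, Ppp1r35, Mapkap1, Mlycd and Rab24 every transplanted stroma library was below every library of the other 6 groups. The choice of genes used the low stroma values, the kits differ, and the share of all genes with this order was not counted. For Mapkap1 that margin was small, 23.3 TPM against 23.8 TPM in a CD11b+ control. It was small for Mlycd too, 2.22 TPM against 2.39 TPM in a CD45.1+ control. Gga2 in transplanted stroma, at 6.05 to 10.4 TPM, overlapped the CD11b+ controls at 8.82 to 13.6 TPM, and Glrx5, at 5.59 to 30.6 TPM (up to 12.7 TPM without N032), overlapped CD11b+ controls at 9.11 to 11.4 TPM.

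**Figure D4:**
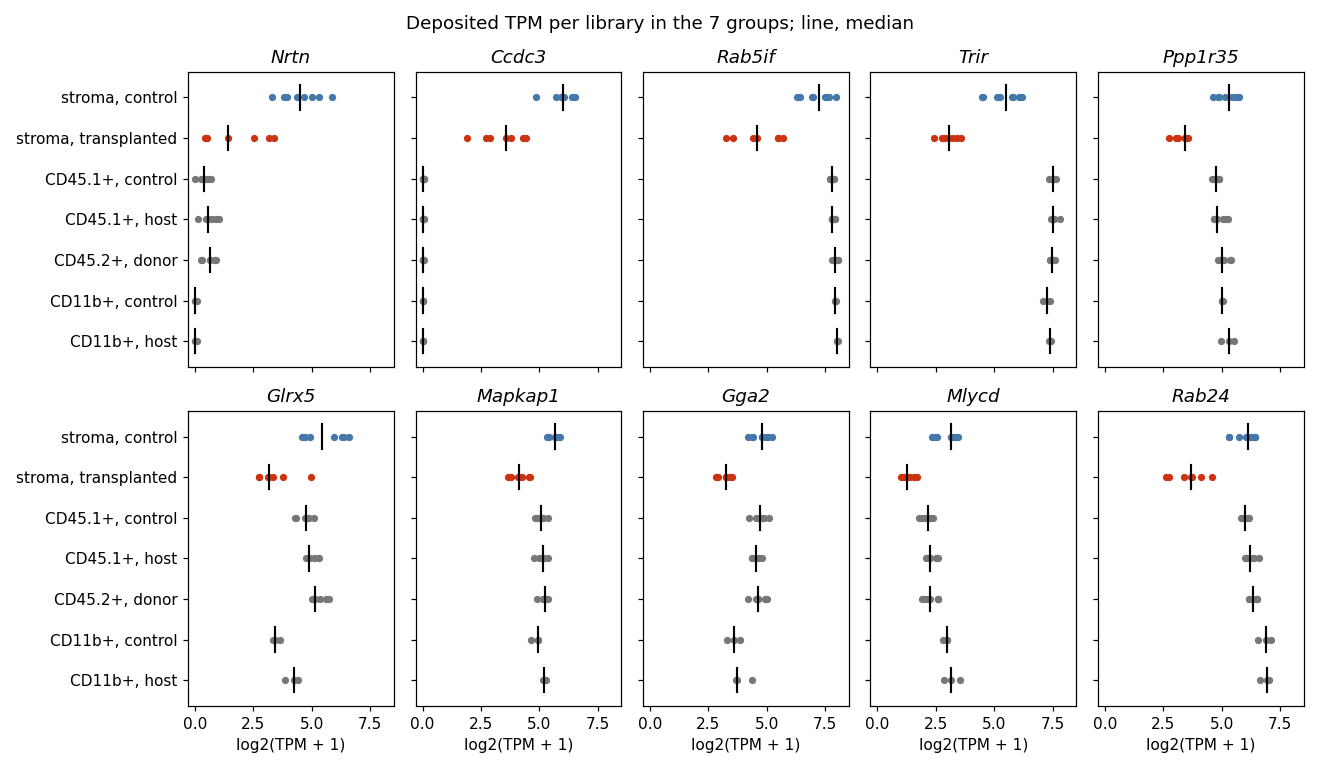
Deposited TPM on the log2(TPM + 1) scale (x axis) of the 10 genes per library in the 7 groups (y axis), with the median as a line. Nrtn and Ccdc3 lie near 0 outside the stroma, and the other 8 are present in every group.

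In host cells of transplanted mice against CD45.1+ cells of controls, Glrx5 was the 1 gene of the 8 tested that passed, and it was higher (8.61% of 14073 genes were called higher and 7.82% lower). Glrx5 was at 25.1, 28.0 and 34.6 CPM in host cells (lowest, median, highest) and at 21.8, 24.5 and 26.5 CPM in controls. The groups overlapped, with a log2 difference of 0.24 ± 0.07 (SE; adjusted p = 0.0312 by edgeR). This call was lost without the low-count filter, on TPM values, with the day of collection as a block, in either sex alone and without any 1 of 8 libraries. The other 7 had log2 fold changes between -0.17 for Gga2 (adjusted p = 0.0787) and 0.29 for Mlycd (adjusted p = 0.0863).

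In donor cells against the same controls, 3 of the 8 passed, all higher (22.7% of 13906 genes were called higher and 23.0% lower). Glrx5 was at 30.0, 32.6 and 41.4 CPM in donor cells, every library above every control, a log2 difference of 0.52 ± 0.09 (SE; adjusted p = 9.42e-05 by edgeR). How many of all genes separated donor cells from controls in this way was not counted. Rab24 was at 51.1, 67.4 and 84.3 CPM against 47.6, 53.4 and 60.0 CPM in controls (0.33 ± 0.08, adjusted p = 0.00276), and Ppp1r35 at 16.2, 19.7 and 27.4 CPM against 15.1, 16.8 and 18.1 CPM (0.27 ± 0.09, adjusted p = 0.0257). Both overlapped the controls. Without the donor library of N269 Ppp1r35 did not pass (0.17, adjusted p = 0.0735) and Trir passed as lower (-0.14, adjusted p = 0.0367), and Ppp1r35 did not pass without the control N208 either (adjusted p = 0.0526). Rab5if, Trir, Mapkap1, Gga2 and Mlycd did not pass, with log2 fold changes from -0.10 for Trir to 0.30 for Mlycd. A share of 3 in 8 stands against 22.7% of all genes. The host and donor comparisons share their control libraries.

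Donor and host cells of the same animal gave 0 of 8 passing without the animal in the model (14.1% of 13662 genes passed in either direction), with Glrx5 at 0.29 ± 0.10 (SE, adjusted p = 0.0618). With the animal as a block, 4 passed as higher in donor cells against 15.2% of all genes, namely Glrx5 at 0.28, Gga2 at 0.18, Rab24 at 0.17 and Rab5if at 0.12.

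In CD11b+ host cells 52 weeks after transplantation, 0 of the 8 passed against CD11b+ controls (edgeR), as did 0 of all 15257 genes (0%), while 2506 had an unadjusted p below 0.05 (16.4%). DESeq2 called 291 genes, none of the 10. Glrx5 was at 13.2, 13.6 and 13.7 CPM in the 3 controls and at 15.1, 19.0 and 19.3 CPM in the 3 transplanted mice, without overlap, a log2 difference of 0.40 ± 0.13 (SE; adjusted p = 0.271 by edgeR). How many of all genes were without overlap between these groups of 3 was not counted. Log2 fold changes of the other 7 tested genes lay between -0.13 for Rab24 and 0.18 for Mlycd.

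**Figure D5:**
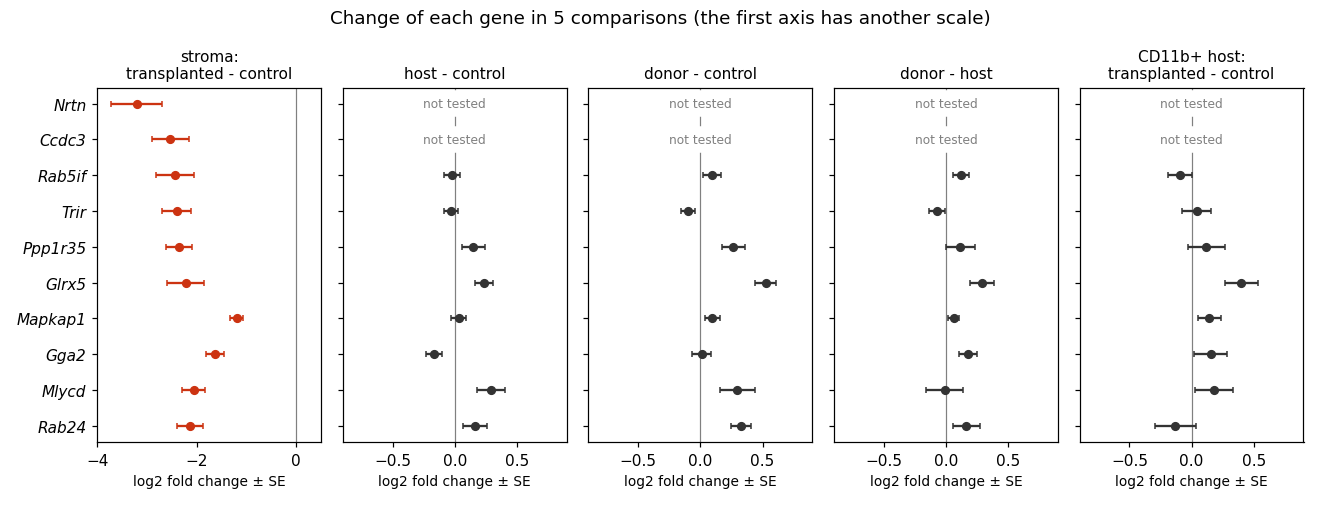
Log2 fold change ± SE (x axis; the stroma panel has a wider scale) of the 10 genes (y axis) in 5 comparisons, from edgeR. The stroma values run from -3.21 to -1.20, and outside the stroma the values lie between -0.17 and 0.52, with Nrtn and Ccdc3 not tested there. The values of donor against host cells are from the fit without the animal as a block.

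Genes known to work with the 10, other than with Ccdc3, were followed as 9 lists. In stroma few of them passed, where 1.03% of all genes tested were called lower and 0.466% higher. No test compared the lists with these shares. Of the telomerase RNA list, which goes with Trir, 2 of 10 tested were lower, Gar1 at -1.84 ± 0.39 (SE, log2; edgeR adjusted p = 0.0193) and Naf1 at -1.28 ± 0.27 (adjusted p = 0.0195). Both encode proteins of H/ACA RNA particles or of their assembly. Of the mTORC2 list, which goes with Mapkap1, 1 of 14 was lower, the assembly factor Tti2 at -0.60 ± 0.14 (adjusted p = 0.0338), and the subunit gene Prr5 had -0.78 ± 0.27 (adjusted p = 0.295). In the other 7 lists 0 passed in either direction. Those are the GDNF family with 11 tested, iron-sulphur assembly with 18, fatty-acid oxidation with 18, Golgi sorting with 19, autophagosome and endosome Rab and Atg8 genes with 17, the multipass translocon with 9 and centriole genes with 12. List medians in stroma lay between -0.08 for centriole genes and 0.18 for the GDNF family, beside 0.04 over all genes. The values with the smallest p in these lists were 1.39 ± 0.36 for Gdf15 (adjusted p = 0.0769), -1.23 ± 0.33 for Gfra4, a co-receptor of the GDNF family, (0.0872) and -0.81 ± 0.20 for Rab5a (0.0634).

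In haematopoietic cells more of these genes passed, where more of all genes did too (22.7% higher and 23.0% lower in donor cells, 8.61% and 7.82% in host cells). No test compared the lists with those shares or between cell types. All 9 tested genes of the multipass translocon, the machinery that inserts membrane proteins and goes with Rab5if, passed as higher in donor cells, with a median log2 fold change of 0.34, and 6 of 9 in host cells, among them Tmem147 at 0.35 ± 0.08 (edgeR adjusted p = 0.011) and Tmco1 at 0.25 ± 0.06 (0.0144). Of the fatty-acid oxidation list 12 of 16 were higher in donor cells and 3 of 16 in host cells, including Cpt1a, which imports fatty acids into mitochondria, at 0.38 ± 0.08 in host cells (adjusted p = 0.00652). Of the iron-sulphur list 10 of 18 were higher and 1 lower in donor cells. Of the telomerase RNA list 7 of 10 were higher and 1 lower in donor cells, and Naf1, lower in stroma, was higher in host cells at 0.45 ± 0.12 (adjusted p = 0.0198). Of 6 GDNF family genes tested, 3 were lower and 0 higher in donor cells, and 2 were lower and 2 higher in host cells. In host cells the co-receptor genes Gfra1 (-1.16 ± 0.23, adjusted p = 0.00294) and Gfra2 (-1.12 ± 0.22, adjusted p = 0.00317) were lower. The 4 other lists had calls in both directions in donor cells, with 4 higher and 3 lower of 14 mTORC2 genes, 5 and 2 of 19 Golgi sorting genes, 3 and 2 of 17 Rab and Atg8 genes and 5 and 1 of 12 centriole genes.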

How the data were processed

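RNA was sequenced from 43 libraries of sorted mouse marrow. The submitters' processing notes list STAR 2.7.3a, featureCounts, Subread 1.6.2 and the build GRCm39, and also RSEM 1.3.3 for the CD11b libraries. Annotation and strand setting are not given in the sources used here. The deposited counts are whole reads per gene without normalization. The deposited TPM values are scaled to 1000000 and to transcript length, and the tool behind them is not given in the sources used here. Per the labels' protocols, the stroma libraries were made with a low-input kit and run 2 times, and the others were directional poly-A libraries. Of 56941 identifiers 51948 had a symbol.

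Counts were fitted with edgeR 4.0.16 in R 4.3.3 (filterByExpr, TMM, quasi-likelihood F-test, sex as covariate except in the all-male CD11b samples, only the groups compared), with Benjamini-Hochberg adjustment over all genes tested and a threshold of 0.05. CPM are TMM-scaled. Alternatives were DESeq2 1.42.0, no filter, limma 3.58.1 on log2(TPM + 1) and log2(TPM + 0.1), each library left out, a block and each sex alone. The scripts were tested on simulated data. Per the labels, each library of a group came from a different animal. Donor and host libraries of 1 animal were paired by the labels (r = 0.172 to 0.51 in all 7 pairs). The main fit of donor against host cells did not use this pairing, and the animal as a block was an alternative. Stroma libraries of the same day, per the labels, correlated at -0.019 to 0.451 in 5 pairs, so the day stayed an alternative.

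The genes, lists and tests were chosen with earlier results of these data known. Named genes were the 10 in every comparison, the 2 most correlated genes of each, up to 4 genes of each list with the smallest p in stroma or host cells, and the next 2 by fold change. Some genes that this rule names are not reported here.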

Additional observations from a re-analysis of the deposited data

Results flagged for a closer look

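Of 50 combinations of a gene and a group of 7 or 8 libraries, 6 held a library far from the others by Dixon's ratio, where chance alone gives about 1 in 20. Glrx5 in transplanted stroma was at 27.47 CPM in animal N032, with 13.7 CPM in the next library. This is the stroma library with the high ribosomal protein share. The other flags were in haematopoietic cells, and 4 came from animal N269, a transplanted female. Its host cells had Rab5if at 171.3 CPM, with 144 CPM in the next library, and Rab24 at 84.81 CPM, with 64.7 CPM next. Its donor cells had Trir at 111.8 CPM, with 96.4 CPM next, and Ppp1r35 at 27.36 CPM, with 20.4 CPM next. Ccdc3 had 0.05417 CPM in the donor cells of N032 and 0 counts in the other 6 donor libraries, which is 1 read.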

How the results depend on the processing

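In stroma the number of the 10 genes called lower was 10 with DESeq2, without the low-count filter, on both TPM scales, with a replicate block by day of collection and without any 1 library, 9 in males alone and 0 in females alone, where 0 genes of all were called. Since the genes were chosen in these same libraries, these counts are a description and not a test. In host cells 1 gene, Glrx5, was called. The number was 0 without the filter, on both TPM scales, with the block and in either sex alone, and 0 to 2 with 1 library left out. In donor against control cells it was 3, all higher, and 1 in males alone, 2 in females alone, 4 on both TPM scales and 2 to 4 with 1 library left out, of which leaving out N269 gave 2 higher and 1 lower. With the day as a replicate block it was 3, with Rab5if (adjusted p = 0.0172) in place of Ppp1r35 (0.0618). In donor against host cells it was 0, and 1 with DESeq2, 1 without the filter, 4 with the animal as a replicate block and 0 to 2 with 1 library left out. Over all genes, 1.03% were called lower and 0.466% higher in stroma, against 1.98% and 0.945% with DESeq2, 1.66% and 0.351% on log2(TPM + 1), 0.584% and 0.393% with the block, 0.356% and 0.0981% in males, and 396 and 197 genes without N032. In host cells 7.82% were lower and 8.61% higher, against 3.29% and 5.68% on log2(TPM + 1). The signs that changed were of values that did not pass. In host cells Rab5if was 0.06 on both TPM scales, with the block and in females, and -0.08 to 0.01 with 1 library left out, Trir was 0.04 on both TPM scales, and Mapkap1 was -0.02 in males. In donor against control cells Gga2 was 0.00 on both TPM scales, -0.04 with the block and -0.03 to 0.05 with 1 library left out. In donor against host cells Mlycd was 0.01 without the filter, 0.23 in females and -0.07 to 0.06 with 1 library left out. In CD11b+ cells Rab5if was 0.07 and Rab24 0.01 on both TPM scales, and with 1 library left out Trir ran from -0.05 to 0.15 and Rab24 from -0.28 to 0.08. Chimerism slopes with 1 library left out ran from -0.01 to 0.19 for Trir, -0.22 to 0.05 for Ppp1r35, -0.75 to 0.10 for Glrx5 and -0.07 to 0.05 for Gga2. For the sex difference, 2 to 8 of the 10 had an unadjusted p below 0.05 with 1 library left out. The sex difference of Glrx5 was -0.06 without the filter and -0.54 to 0.31 with 1 library left out. The causes were not tested. The 3 libraries per CD11b+ group and the 3 females among transplanted mice limit those comparisons.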

Other observations

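The GC content of the first 200 transcript bases was also set against the comparisons of haematopoietic cells, in the same bins of genes. In host cells against controls, 7.93% of the genes in the highest bin and 7.93% in the lowest were called lower, with 6.09% to 7.34% between. In donor cells against controls these shares were 25.2% and 20.9%, with 16.6% to 20.9% between, and in donor against host cells 10.9% and 9.95%, with 6.49% to 7.39% between. These libraries were made with another kit than the stroma libraries, and the difference from the stroma was not tested.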
